A study of Homo sapiens with 14 samples.

Results

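The promoters examined belong to the 249 protein-coding genes on chromosome 19 whose symbol is ZNF followed by a number in GENCODE release 44 (hg38), of 19970 protein-coding genes on the autosomes and X. Peaks were assigned to a gene when their centre lay from 2 kb upstream to 1 kb downstream of any of its transcription start sites (TSSs), and separately when they covered its last exon. The series holds 14 ChIP-seq samples from HEK293T cells, a human embryonic kidney line, in a clone in which ZNF143 carries an FKBP12 degradation tag. ZNF143 was immunoprecipitated with the Proteintech antibody in 4 untreated samples and in 4 samples exposed to 0.5 µM dTAG-V1, which sends the tagged protein for degradation, for 30 min, and 6 further samples with a CTCF antibody (3 per condition) are not analysed here. The paper reports that the Proteintech antibody also recognises CTCF, and that its signal at CTCF sites persisted and grew after ZNF143 depletion. A peak is therefore a site of antibody signal and need not be bound by ZNF143. Each ZNF143 condition was represented by 1 peak list pooled over its samples, with 20429 peaks untreated and 35287 peaks after dTAG-V1, so no value had a spread between replicates. The intervals below are 95% Wilson intervals, which cover counting error only, and neighbouring ZNF genes that arose by duplication are not independent of each other. The peak names of the untreated list carry the word DMSO, whereas the sample labels say untreated.

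Most chromosome 19 ZNF genes encode KRAB zinc finger proteins, repressors whose array of C2H2 fingers reads DNA, often in a transposable element, and whose KRAB domain recruits the corepressor TRIM28. The family grew by tandem duplication, which left the genes in clusters, and the whole finger array is usually coded in the last exon. ZNF143 itself is a C2H2 factor, encoded on another chromosome, that binds promoters at 2 related sites, SBS1 and SBS2. Both sites share a TTCCCA core, and SBS1 carries the additional letters ACTACA in front of it. Of the 249 genes, 207 matched a KRAB pattern in their translated canonical coding sequence. They coded a median of 12 fingers (quartiles 9 and 15, highest 39), and 98.5% of their 3160 fingers lay in the last exon.

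A set of SBS1 sites is shown first because these letters recur at the promoters with the highest peaks. They were taken from the genome at the best match to the SBS1 matrix in each peak, with the 22 bases matched by the matrix in capitals and 4 bases on each side. The genes are some of those with high promoter peaks, followed by ZNF331, an imprinted gene, and ZNF274, which brings the methyltransferase SETDB1 to the ends of other zinc finger genes.
ZNF444 (chr19:56140947-56140976, minus strand): tttgGACTACATTTCCCAGAATGCACgagg
ZNF225 (chr19:44113308-44113337, minus strand): tctgGACTACACTTCCCAGAATTCCCtggg
ZNF223 (chr19:44051972-44052001, minus strand): tctgGACTCCACTCCCCAGAATTCCCcgga
ZNF221 (chr19:43951201-43951230, minus strand): tctgGACTACATTTCCCAGAATTCCCcgga
ZNF235 (chr19:44305095-44305124, plus strand): cctgGACTACAGTTCCCAGAATGCTCcaag
ZNF749 (chr19:57435174-57435203, plus strand): tgggAACTACATTACCCAGAAGACACtgcg
ZNF419 (chr19:57487635-57487664, plus strand): cgggAACTACATTGCCCAAAAGGCGCagcg
ZNF331 (chr19:53520883-53520912, plus strand): tatgGACTACATTTCCCAGAGGCCTCtggg
ZNF274 (chr19:58183354-58183383, minus strand): cccgAACTACAACTCCCAGACGCCCCcgcg
The 9 sites are examples. Over the 17 distinct SBS1 sites read for the named genes, the second capital begins the letters ACTAC of the SBS1 module in 11.

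Promoter peaks were more frequent at chromosome 19 ZNF genes than at protein-coding genes in general. In the untreated list 173 of 249 genes (69.5%, interval 63.5 to 74.9) had a promoter peak, beside 40.5% of all protein-coding genes. In the dTAG-V1 list 166 genes (66.7%, 60.6 to 72.2) had one, beside 48.2%. ZNF genes of the other chromosomes gave 64.7% and 67.3% (n = 266), close to the chromosome 19 genes, whereas the other protein-coding genes of chromosome 19 gave 45.3% and 52.4% (n = 1227). In both lists the interval of the chromosome 19 ZNF genes lay above that of the other genes of the chromosome and overlapped that of the ZNF genes elsewhere.

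**Figure D1:**
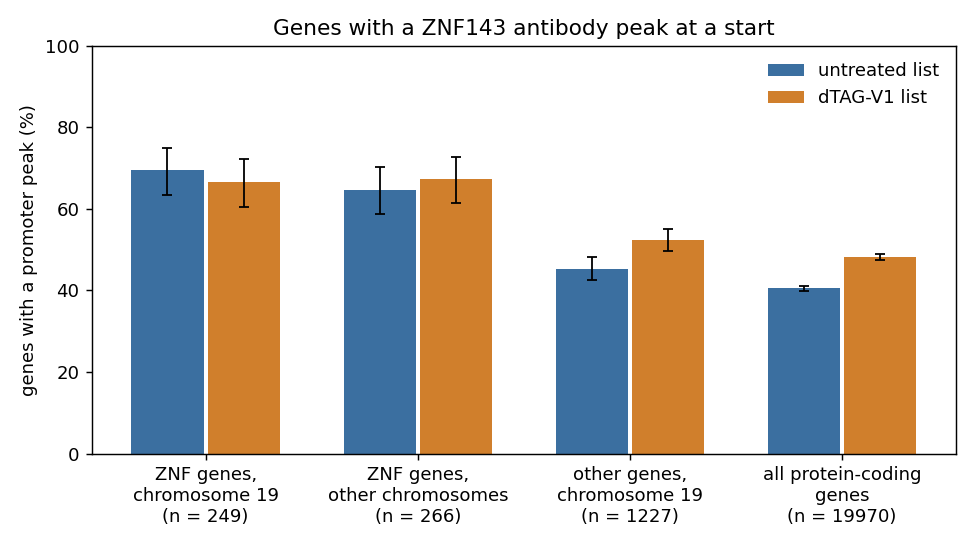
Percent of genes with a promoter peak (vertical axis) in the untreated and dTAG-V1 lists for 4 sets of genes, with 95% Wilson intervals as error bars. Both ZNF sets stand between 64.7% and 69.5%, above the other genes of chromosome 19 and above all protein-coding genes.

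The same genes mostly appeared in both lists. A peak was present in both lists at 159 genes (63.9%, 57.7 to 69.6; 37.2% of all genes), in the untreated list only at 14 (5.62%, 3.38 to 9.22; 3.37% of all genes) and in the dTAG-V1 list only at 7 (2.81%, 1.37 to 5.69; 11.1% of all genes). The untreated-only share was above that of all genes, which lay just below its interval. Among the 173 genes with an untreated promoter peak, however, 8.09% (4.88 to 13.1) had none after dTAG-V1, beside 8.30% of all genes with such a peak. Among the 166 with a dTAG-V1 promoter peak, 4.22% (2.06 to 8.45) had none untreated, beside 22.9% of all genes with one. For peaks called reproducible the methods describe a looser replicate rule after dTAG-V1 than untreated, and whether it shaped the deposited lists is not given in the sources used here. Among peaks, 159 of 178 untreated promoter peaks (89.3%, 83.9 to 93.1) overlapped a dTAG-V1 peak by 1 bp or more, beside 84.1% of the 7524 peaks at other promoters. In the other direction, 160 of 172 dTAG-V1 promoter peaks (93.0%, 88.2 to 96.0) overlapped an untreated peak, beside 62.1% of 10124 at other promoters. The 69 genes without a peak in either list made up 27.7% (22.5 to 33.6) of the set, beside 48.4% of all genes. Most of these shares were close to those of ZNF genes on other chromosomes, with 59.4% in both lists, 5.26% untreated only and 27.4% in neither. Of those with an untreated peak 8.14% had none after dTAG-V1. The dTAG-V1-only share was 7.89% (5.22 to 11.8), or 11.7% (7.80 to 17.3) of those with a dTAG-V1 peak, with intervals that overlap those of the set.

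Within the window used to assign them, most peaks lay close to an annotated start. Distances were not computed for other genes, so this closeness does not set the group apart. The summit of the best peak lay a median of 60 bp from the nearest start in the untreated list and 63 bp in the dTAG-V1 list, and 90.2% and 86.1% of summits were within 200 bp. Several members shared a peak, 12 peaks untreated and 14 after dTAG-V1 being assigned to 2 genes each. A divergent start of another protein-coding gene within 1 kb was annotated at 22 members, of which 21 (95.5%, 78.2 to 99.2) had a promoter peak in both lists. Of the 36 members with a divergent lncRNA start, 28 (77.8%, 61.9 to 88.3) had a peak in both. Of the 191 members with no divergent start, 110 (57.6%, 50.5 to 64.4) had a peak in both. Divergent partners that are both members, such as ZNF490 and ZNF791, count separately though they share a peak. The same shares over all protein-coding genes were not computed, so whether they are particular to this set is not known. ZNF383 and ZNF585B were assigned the same peak, as were ZNF565 and ZNF146, and the start of ZNF473, a component of histone pre-mRNA processing, faces that of the kinase gene VRK3.

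In score, the promoter peaks of these genes stood high in both lists. The score of a peak is 10 times the −log10 q-value of the caller, and scores are comparable within a list but not between lists. Of the untreated promoter peaks 53.4% (46.0 to 60.6) were in the top 10% of their list, beside 19.8% (18.9 to 20.7) of peaks at other promoters. After dTAG-V1 60.5% (53.0 to 67.5) were in the top 10%, beside 20.1% (19.4 to 20.9), and 24 of 172 (14%, 9.56 to 19.9) were in the top 1%, beside 3.02% at other promoters. In the untreated list the share in the top 1% was 1.69% (0.575 to 4.84), beside 2.53%, a difference within counting error. The lists differ in length, so the top 10% holds 2042 peaks untreated and 3529 after dTAG-V1, and the top 1% holds 204 and 352. These shares are therefore not compared between the lists. The median fold enrichment over the local background was 20.8 untreated (range 2.30 to 40.0) and 17 after dTAG-V1 (2.13 to 37.6), against 4.29 and 3.22 at other promoters.

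ZNF444 held the highest promoter peak of the set in both lists, with rank 82 of the untreated list (fold enrichment 29.8) and rank 42 of the dTAG-V1 list (29.8). ZNF225 followed at rank 97 (29.2) and rank 43 (30.8), and ZNF223 at rank 107 (29.6) and rank 131 (29.2). ZNF226 stood at rank 213 untreated and 127 after dTAG-V1. These 4 genes, with ZNF235 (ranks 271 and 216), were among the 10 highest of the set in both lists. The others of the untreated list were ZNF181 (rank 246), ZNF221 (251), the peak shared by ZNF383 and ZNF585B (256) and ZNF749 (275). The others of the dTAG-V1 list were ZNF548 (101), ZNF230 (198), ZNF850 (202), ZNF224 (218), a reported repressor of the aldolase A gene, and ZNF419 (225). ZNF419 had the highest fold enrichment of the set, 40.0 untreated and 37.6 after dTAG-V1.

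The genes were not alike along the chromosome. Neighbours at most 500 kb apart formed 20 clusters, 8 of them with 10 or more members and 225 members in all. In the cluster from ZNF565 to ZNF573 (chr19:36182276-37817300) all 26 genes had a promoter peak in both lists. In that from ZNF575 to ZNF180 (chr19:43525497-44500524) 21 of 23 had one in both, and in that from ZNF264 to ZNF446 (chr19:57191500-58481230) 37 of 43. The cluster from ZNF101 to ZNF254 (chr19:19668796-24129968), which holds ZNF91, had a peak in both lists at 9 of 37 genes and in neither at 23. The cluster from ZNF175 to ZNF331 (chr19:51571283-53580269) had a peak in both at 13 of 40 and in neither at 17, and it held 9 of the 14 genes seen in the untreated list only. The cluster from ZNF653 to ZNF791 (chr19:11483427-12640098) had a peak in both at 13 of 26 genes.

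**Figure D2:**
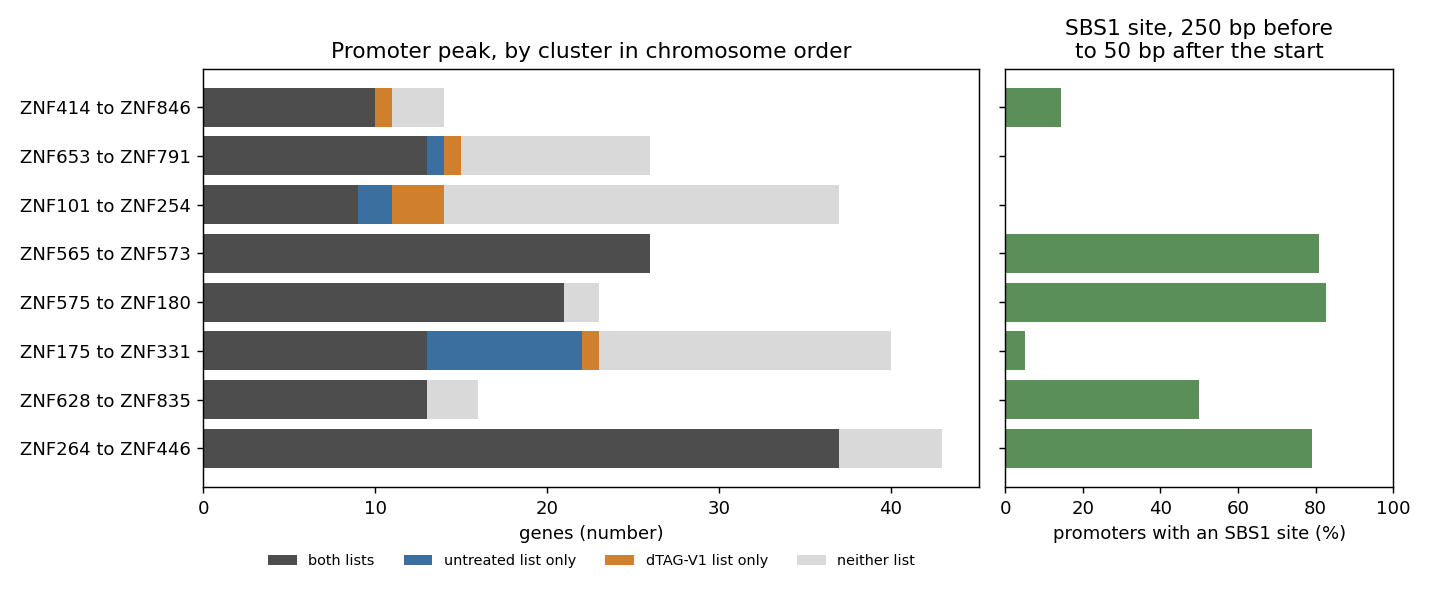
Left, number of genes (horizontal axis) with a promoter peak in both lists, in 1 list only or in neither, for the 8 clusters with 10 or more members in chromosome order, each named by its first and last gene. Right, percent of the canonical promoters of each cluster with an SBS1 hit at p 1e-05; the cluster from ZNF565 to ZNF573 has 26 of 26 genes in both lists and 21 of 26 promoters with a site, and that from ZNF101 to ZNF254 has 9 of 37 and 0 of 37.

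Enrichment also differed between clusters. The best untreated promoter peaks had a median fold enrichment of 33.6 in the cluster from ZNF264 to ZNF446 (range 8.33 to 40.0), 30.0 in that from ZNF575 to ZNF180 (11.2 to 36.5) and 27.3 in that from ZNF565 to ZNF573 (16.5 to 37.4). In the cluster from ZNF101 to ZNF254 the 11 genes with a peak ranged from 2.65 to 4.25, and in that from ZNF653 to ZNF791 the 14 genes with a peak ranged from 2.59 to 7.37. Neither range reached the lowest value of the 3 clusters above. After dTAG-V1 the corresponding medians were 30.6, 28.9 and 22.4 against 3.12 in both of the low clusters.

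**Figure D3:**
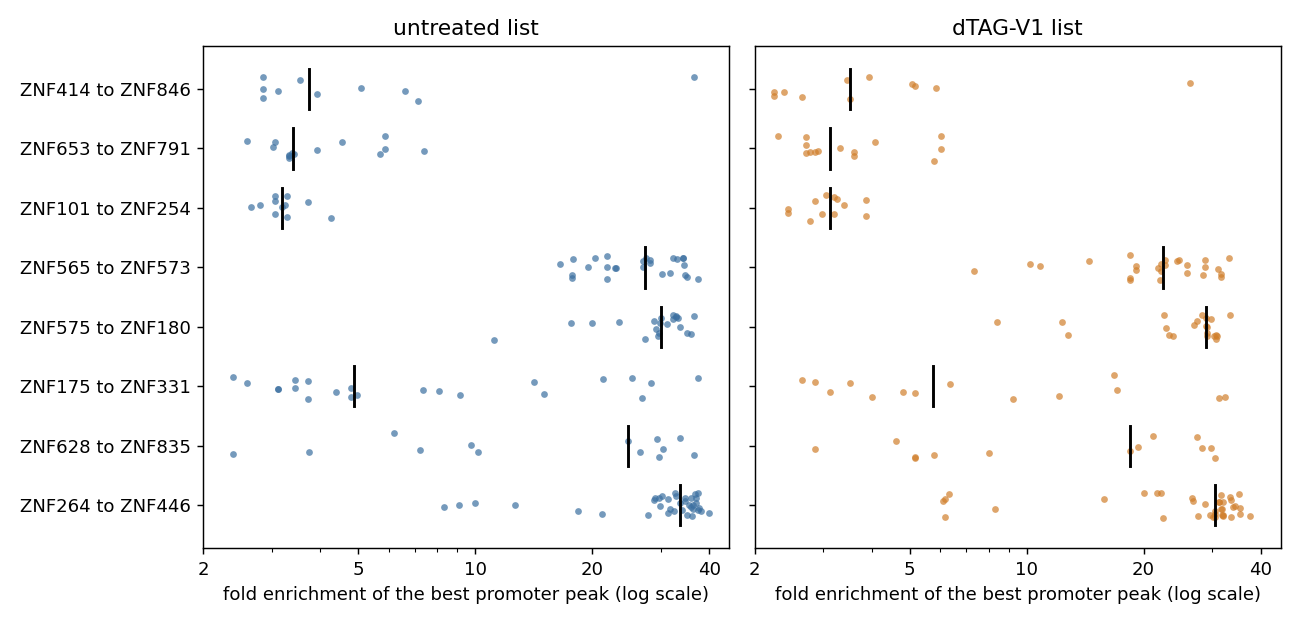
Fold enrichment of the best promoter peak of each gene (horizontal axis, log scale) by cluster, for the untreated list (left) and the dTAG-V1 list (right), with each point a gene and each bar the median over the genes with a peak. The clusters from ZNF565 to ZNF573, from ZNF575 to ZNF180 and from ZNF264 to ZNF446 have untreated medians of 27.3 to 33.6, and those from ZNF653 to ZNF791 and from ZNF101 to ZNF254 stay at or below 7.37.

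The SBS1 site was spread unevenly over the same clusters. Canonical promoters were searched from 250 bp before to 50 bp after the start on both strands, with matrices learned from peaks of the autosomes other than 19. At p 1e-05 an SBS1 hit was found in 97 of 249 promoters (39%, 33.1 to 45.1), beside 9.78% of all protein-coding promoters, 23.3% (18.6 to 28.7) at ZNF genes of other chromosomes and 14.1% (12.3 to 16.2) at other genes of chromosome 19. At the stricter p of 1e-06 the shares were 32.9% and 4.98% of all promoters. For SBS2 the shares were 43.0% (37.0 to 49.2) at p 1e-05, beside 36.8% of all promoters, and 23.7% (18.8 to 29.4) at p 1e-06, beside 11.2%. At p 5e-05 SBS2 was found in 62.7% (56.5 to 68.4), beside 63.2%. CTCF hits were found in 10.8% (7.56 to 15.3) at p 1e-05, beside 11.4% of all promoters, and in 21.3% (16.7 to 26.8) at p 5e-05, beside 30.8%. SBS1 hits were found in 21 of 26 promoters of the cluster from ZNF565 to ZNF573, 19 of 23 of that from ZNF575 to ZNF180 and 34 of 43 of that from ZNF264 to ZNF446, against 0 of 37 in the cluster from ZNF101 to ZNF254 (which allows a share of up to 8.11%, taken as 3 counts of the total), 0 of 26 in that from ZNF653 to ZNF791 (up to 11.5% by the same limit) and 2 of 40 in that from ZNF175 to ZNF331.

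Of the 97 promoters with an SBS1 hit, 88 (90.7%, 83.3 to 95) had a peak in both lists, and none had a peak in 1 list only. Among all protein-coding promoters with such a hit, 63.8% had a peak in both lists. With hits at p 1e-06 the shares were 92.7% (84.9 to 96.6) and 89.7% (87.7 to 91.5), with overlapping intervals. Of the 152 promoters of the set without an SBS1 hit, 71 (46.7%) had a peak in both lists. A peak in either list was present at 92 of them (60.5%, 52.6 to 67.9), beside 49.5% of all protein-coding promoters without a hit. Some of the 152 held an SBS2 hit. Among the genes in both lists, the 88 with a hit had an untreated median fold enrichment of 31.6 (quartiles 27.1 and 35.0) and the 71 without had 5.88 (3.32 and 15.8). After dTAG-V1 the medians were 28.2 and 4.81. The 9 promoters with a hit and no peak were those of ZNF285, ZNF578, ZNF415, ZNF835, ZNF154, ZNF814, ZNF418, ZNF135 and ZNF132. In the cluster from ZNF414 to ZNF846 a hit was found in 2 of 14 promoters, whereas 10 of 14 genes had a peak in both lists. From ZNF628 to ZNF835 the counts were 8 of 16 and 13 of 16.

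**Figure D4:**
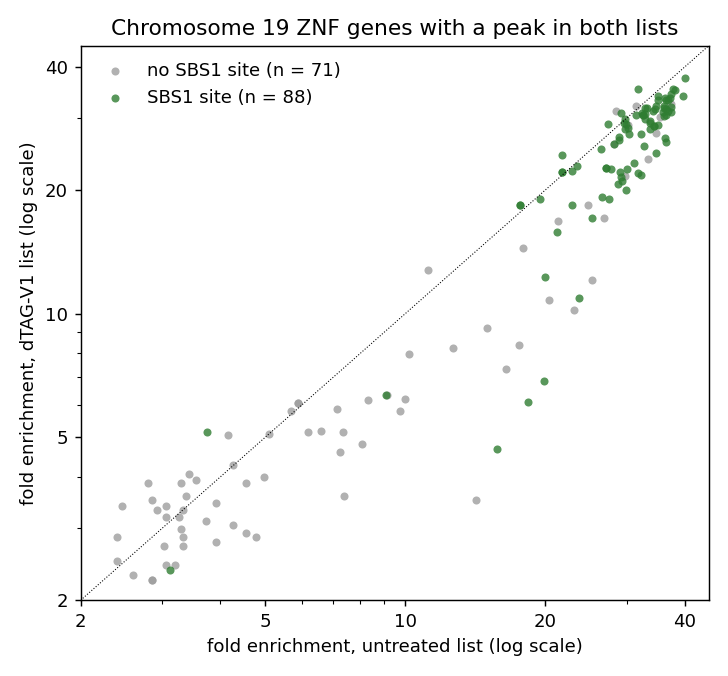
Fold enrichment of the best promoter peak in the untreated list (horizontal axis) and the dTAG-V1 list (vertical axis), both on log scales, for the 159 genes with a peak in both lists, green where the canonical promoter has an SBS1 hit at p 1e-05 and grey where it has none; the dotted line marks equal values. Most of the 88 green points are in the upper right, with medians of 31.6 and 28.2, and the 71 grey points spread below, with medians of 5.88 and 4.81.

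The fold enrichment was higher in the untreated list at 129 of the 159 genes (81.1%, 74.3 to 86.5), beside 70.2% of all 7425 genes with a peak in both lists. The median ratio of untreated to dTAG-V1 fold enrichment was 1.17 for the set and 1.18 for all genes. The ratios reached from 0.722 to 4.04, and the highest was that of ZNF845, which had a fold enrichment of 14.2 untreated and 3.52 after dTAG-V1. Values for the set were those of the best peak of a gene in each list. These peaks need not be at the same start, as at ZNF627. The lists were called from different samples and their depths are not known, so these ratios are descriptions.

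Only the window from 250 bp before to 50 bp after the start was searched, so every SBS1 hit lay near the start. Over all protein-coding promoters the hits also lay mostly upstream. There 1.43% of promoters had theirs in the bin from -75 bp and 0.190% in the bin from 25 bp. The centres of the 97 best hits had a median position of -77 bp from the canonical start (quartiles -116 and -43, negative values being upstream), and 88 of 97 lay in the 150 bp before it. On the gene's strand 59 read in the SBS1 direction and 38 in the reverse. Searched over their whole width, 97 of the 178 untreated promoter peaks held an SBS1 hit at p 1e-05, a different set from the 97 promoters above. Their best hits centred a median of 12.5 bp from the summit. Of these, 84 of 97 (86.6%, 78.4 to 92.0) were within 50 bp of it, against 68.1% (65.9 to 70.2) at other promoters. The 22 CTCF hits at p 1e-05 in the 178 peaks were a median of 146 bp from the summit, and 2 of 22 were within 50 bp, against a median of 84 bp and 35.7% at other promoters. After dTAG-V1 the median was 131 bp with 4 of 22 within 50 bp, against 41 bp and 55.1%.

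**Figure D5:**
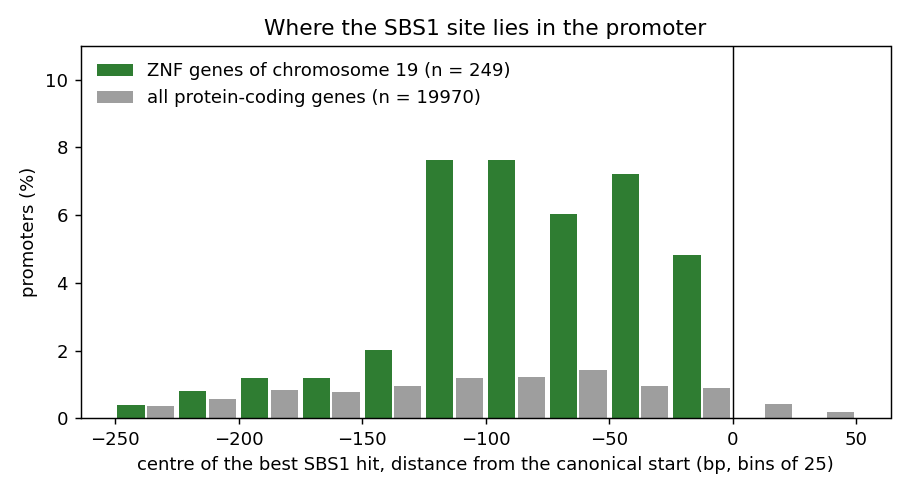
Percent of promoters (vertical axis) whose best SBS1 hit at p 1e-05 is centred in each bin of 25 bp (horizontal axis, distance from the canonical start, negative upstream), for the 249 ZNF genes of chromosome 19 and for all 19970 protein-coding genes. The bins from -125 to -75 each hold 19 ZNF promoters (7.63%), beside 1.19% and 1.23% of all promoters.

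Many peaks held the site more than once. Untreated promoter peaks with 2 or more SBS1 hits that did not overlap numbered 39 of 178 (21.9%, 16.5 to 28.5), beside 7.26% (6.69 to 7.87) at other promoters, although the peaks of the set were also wider (median 642 against 486 bp). Of the 16 peaks with 3 or more hits, 8 were in the cluster from ZNF575 to ZNF180. ZNF181 had 6 hits, ZNF223 had 5, and ZNF225, ZNF226, ZNF230 and ZNF444 had 4 each. In the ZNF225 peak neighbouring hits were spaced by 71, 72 and 56 bp, and in the ZNF224 peak 2 of them by 72 bp. The median fold enrichment was 3.72 with no hit, 32 with 1, 29.9 with 2 and 29.4 with 3 or more. After dTAG-V1 it was 3.59, 27, 24.7 and 29.1. At other promoters the untreated median was 16 with 1 hit and 30.9 with 2 or more.

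The 200 bases before the canonical start are shown for 3 promoters that differ in these respects, on the gene's strand, with SBS1 hits at p 1e-05 in capitals. ZNF225 carries 3 hits in reverse orientation, ZNF749 carries the same 22 letters at both of its hits, 49 bp apart, and ZNF91, a repressor of SVA retrotransposons, has no hit and no promoter peak in either list.
ZNF225 (chr19:44113199-44113398, plus strand): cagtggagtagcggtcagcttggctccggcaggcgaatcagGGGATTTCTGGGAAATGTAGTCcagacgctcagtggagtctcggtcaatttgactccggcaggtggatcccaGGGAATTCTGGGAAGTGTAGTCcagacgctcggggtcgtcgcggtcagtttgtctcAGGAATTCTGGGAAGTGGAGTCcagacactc
ZNF749 (chr19:57435125-57435324, plus strand): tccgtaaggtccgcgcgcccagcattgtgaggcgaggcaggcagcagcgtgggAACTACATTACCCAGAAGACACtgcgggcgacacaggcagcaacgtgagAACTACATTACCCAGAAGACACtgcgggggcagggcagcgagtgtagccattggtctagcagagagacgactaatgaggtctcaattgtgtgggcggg
ZNF91 (chr19:23395472-23395671, minus strand): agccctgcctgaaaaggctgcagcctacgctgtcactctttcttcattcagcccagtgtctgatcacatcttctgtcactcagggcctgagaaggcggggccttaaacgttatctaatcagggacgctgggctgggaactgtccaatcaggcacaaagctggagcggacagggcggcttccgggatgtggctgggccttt
The ZNF749 promoter peak had rank 275 untreated and rank 322 after dTAG-V1.

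Short words were counted within 100 bp of the summits without any matrix. The 8-mer ACTACATT, or its reverse complement AATGTAGT, was present in 42 of 178 untreated promoter peaks of the set (23.6%, 18.0 to 30.3) and in 2.22% (1.91 to 2.58) of peaks at other promoters. After dTAG-V1 it was present in 23.8% (18.1 to 30.7) and 1.67% (1.44 to 1.94). The words CTACATTA, GTAATGTA and CATTACCC, which overlap it and each other in letters and are seen in the ZNF749 site, were found in 8.43%, 7.30% and 7.87% of untreated peaks of the set, beside 0.213%, 0.239% and 0.439%. In the whole promoter window ACTACATT was found in 16.5% (12.4 to 21.6) of the set, beside 1.06% of all promoters and 3.01% (1.53 to 5.82) at ZNF genes of other chromosomes. These words were picked by their excess in these peaks, so the differences are descriptions.

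The 14 genes seen in the untreated list only had low peaks, with a median fold enrichment of 3.28 (range 2.39 to 5.61), and 0 of 14 had an SBS1 hit at p 1e-05 in the canonical promoter, which allows a share of up to 21.4% (3 counts of the total). Of all 672 protein-coding genes seen untreated only, 43 (6.40%) had one. Over whole peaks, 3 of the 19 promoter peaks of the set found in the untreated list only held an SBS1 hit (15.8%, 5.52 to 37.6), beside 15.7% at other promoters. The highest scores were those of ZNF296 (405, fold enrichment 5.61), ZNF28 (240, 4.78), ZNF701 (198, 4.38), ZNF14 (135, 3.72) and ZNF880 (135, 3.72). The other genes were ZNF57, ZNF709, ZNF506 and, in the cluster from ZNF175 to ZNF331, ZNF766, ZNF320, ZNF888, ZNF160, ZNF765 and ZNF761. The 7 genes seen in the dTAG-V1 list only were ZNF114 (score 141, 3.51), ZNF724 (94, 3.25), ZNF85 (64, 2.85), ZNF738 (60, 2.78), ZNF653 (55, 2.71), ZNF699 and ZNF836. None of these 21 genes had a peak in the top 10% of its list, and whether the other list lacked depth to show them was not tested.

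The promoters of the cluster from ZNF175 to ZNF331 shared other letters. The word ACCCGGAAG or ACCAGGAAG on the gene's strand was found in 26 of its 40 canonical promoters (65.0%, 49.5 to 77.9), in 1 promoter of the other clusters (that of a gene from ZNF264 to ZNF446) and in 1.17% of all promoters. It was present at each of the 9 genes seen in the untreated list only, at 14 of the 17 in neither list and at 3 of the 13 in both, so promoters with and without a peak carried it. The word was chosen after the promoters were seen. It contains the GGAAG core common to ETS factor sites, and it usually began within 18 bp after the start. For 5 genes of the untreated list only (ZNF28, ZNF701, ZNF880, ZNF765 and ZNF761), 2 in neither list (ZNF808, whose loss impairs pancreas development, and ZNF677) and 1 in both (ZNF611), the 30 bases around it are shown on the gene's strand with the word in capitals.
ZNF28 (chr19:52821610-52821639, minus strand): tcgcgcagACCAGGAAGcggatcccgtgga
ZNF701 (chr19:52570281-52570310, plus strand): ccgcgcagACCAGGAAGcggatcccgtgga
ZNF880 (chr19:52369927-52369956, plus strand): tcctggagACCCGGAAGcagattacgtgga
ZNF765 (chr19:53395143-53395172, plus strand): tcgcgcagACCCGGAAGcggacggcgtgga
ZNF761 (chr19:53431978-53432007, plus strand): tcgtgcagACCAGGAAGcggatagcgtgga
ZNF808 (chr19:52527662-52527691, plus strand): taacgcaaACCCGGAAGcggatcgggtgga
ZNF677 (chr19:53254851-53254880, minus strand): tcctgccgACCCGGAAGcggatctcgcggg
ZNF611 (chr19:52735021-52735050, minus strand): taacgcaaACCCGGAAGcggatcgggtgga
ZNF808 and ZNF611 carry the same 30 letters, with a promoter peak in neither list for ZNF808 and in both for ZNF611.

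Among genes of known role, ZNF331 (ranks 312 and 266; fold enrichment 28.4 and 31.2), ZNF473 (ranks 368 and 418; 25.3 and 17.1), ZNF274 (ranks 1171 and 1191; 29.7 and 21.7) and ZNF382, a candidate tumour suppressor (ranks 2199 and 3212; 16.5 and 7.32) had promoter peaks in both lists. ZNF91, ZNF93, which represses some LINE-1 elements, ZNF808 and ZNF558 had none in either. Of the 5 genes with most fingers, ZNF729 (39), ZNF208 (36) and ZNF91 (32) lie in the cluster from ZNF101 to ZNF254 and had no promoter peak, whereas ZNF850 (30) and ZNF845 (26) had one in both lists. Over the whole set the shares by finger number differed by less than counting error, with 64.3% (56.1 to 71.7) of genes at or above the median in both lists and 63.3% (53.9 to 71.8) of those below it. The KRAB pattern gave 62.3% (55.5 to 68.6) with and 71.4% (56.4 to 82.8) without, with overlapping intervals.

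Reads were kept by mapping quality, and duplicated genes leave fewer unique positions, so the share of 31-base words that occur once in hg38 was computed for each canonical promoter. Its median was 100% for genes with a peak in both lists, 98.1% for those in neither, and 93.3% in the cluster from ZNF101 to ZNF254. Below 80% were 3 of 159 promoters in both lists, 2 of 14 untreated only, 1 of 7 dTAG-V1 only and 6 of 69 in neither. Over all protein-coding promoters 1264 of 19970 were below 80%. The part of uniqueness in the peak calls was not tested.

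The last exons gave few peaks. In the untreated list a peak covered the last exon of the canonical transcript at 5 genes (2.01%, 0.861 to 4.61; 2.42% of all genes) and in the dTAG-V1 list at 3 (1.20%, 0.411 to 3.48; 4.72% of all genes). ZNF genes of other chromosomes gave 5.64% and 6.77%. The untreated peaks were over ZNF180, ZNF583, ZNF564, ZNF569 and ZNF529, and the dTAG-V1 peaks over ZNF180, ZNF583 and ZNF529, all with the summit in coding sequence. All 5 genes also had a promoter peak in both lists.

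The ZNF180 peak was the highest of them, with a score of 241 and a fold enrichment of 4.53 untreated (rank 7952) and 172 and 4.01 after dTAG-V1 (rank 11516). It was 1036 bp wide untreated and covered 11 of the 12 fingers, whereas the others had untreated fold enrichments of 2.32 to 2.70 and covered 3 to 5 fingers. None of these 8 peaks held a CTCF, SBS1 or SBS2 hit even at p 5e-05. The last exons had a median of 86.6% unique 31-base words (lowest 22.9%), and the 5 with peaks had 91.1% to 98.6%. The coding sequence at the linker nearest the untreated summit is shown for ZNF180 and ZNF583 because no motif hit lay in these peaks, with the codons of the finger-to-finger linker in capitals (24 bp from the summit in ZNF180 and 4 bp in ZNF583).
ZNF180 (chr19:44476732-44476791, minus strand): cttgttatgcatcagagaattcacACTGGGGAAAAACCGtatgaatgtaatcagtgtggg
ZNF583 (chr19:56424009-56424068, plus strand): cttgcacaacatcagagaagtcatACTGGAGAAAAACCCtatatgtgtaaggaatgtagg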

How the data were processed

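ChIP-seq peaks of ZNF143 (Proteintech antibody) in HEK293T cells were taken from the 2 deposited lists, 1 for the 4 untreated and 1 for the 4 dTAG-V1 samples. According to the sources, the authors aligned reads to hg38 with BWA, filtered them with SAMtools and Picard and called peaks with MACS2. For peaks called reproducible, the methods required presence in all 4 replicates when untreated, whereas 1 of the 4 sufficed after dTAG-V1. It is not given in the sources used here if that rule was applied to the deposited lists. Each deposited list holds a score, a fold enrichment (a linear ratio to the local background), and −log10 p- and q-values per peak; no peak was below 2.01 on the −log10 q scale. Depth per sample is unknown. There were 0 per-replicate columns left unused.

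Peaks were assigned to GENCODE release 44 genes, and lists were compared by overlap of 1 bp. Matrices for CTCF, SBS1 and SBS2 were learned from untreated and dTAG-V1 peaks of the autosomes other than 19, starting from written consensus patterns, with hits at p 1e-06 over 10 rounds and a pseudocount of 0.8, and were tested on simulated sequences. Fingers and the KRAB pattern were read from translated GENCODE coding sequences in place of RefSeq proteins. Python 3.11 with numpy, scipy, numba and pysam was used. Genes were named by rank of score, list, finger number or known role. The genes, lists and patterns were chosen with earlier results of these data known. No test of significance was run, since neither list has replicate values. Alternatives were another promoter window, canonical starts, summits, a −log10 q-value of at least 5, no readthrough genes, other overlaps, other last exons and other motif criteria.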

Additional observations from a re-analysis of the deposited data

How the results depend on the processing

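The 5 counts of genes with promoter peaks moved by less than 1.5 times under each alternative tried: 500 bp either side of a start, canonical starts, summits in place of centres, a −log10 q-value of at least 5, and no readthrough genes. The count in both lists alone was also taken by overlap of the peaks themselves, giving 158 genes at 1 bp and 147 at 50% of each peak. Requiring each peak to be covered to at least 50% lowered the shared share to 83.7% of untreated and 86.6% of dTAG-V1 promoter peaks. Last exon counts rose to 11 untreated and 9 after dTAG-V1 with the last exons of all transcripts, and fell to 2 untreated at a −log10 q-value of at least 5. At p 5e-05 over whole peaks, SBS1 or SBS2 was found in 91.6% of untreated and 90.7% of dTAG-V1 promoter peaks and CTCF in 39.9% and 45.9%, beside 78.1%, 66%, 40.2% and 44.2% at other promoters. With hits at p 1e-05 the shares in the set became 69.1%, 68.6%, 12.4% and 12.8%, within 100 bp of the summit 77.5%, 74.4%, 14.6% and 15.1%, and with the written consensus and 1 mismatch 10.7%, 11%, 8.99% and 8.14%. Other matrices left them within their intervals. At other promoters the shares at p 1e-05 were 54.5% untreated and 40% after dTAG-V1 for SBS1 or SBS2. For CTCF they were 18% and 23.2%. The CTCF share of the set at this p was lower in both lists, with intervals that overlapped untreated and were apart after dTAG-V1. No paired analysis was possible because the deposited lists carry no replicate values. No replicate could be left out for the same reason, and the unknown depth limits what absence from a list means.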

Other observations

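The word CCGGAAG, on either strand, was found in 44.6% (interval 38.5 to 50.8) of the canonical promoters of the 249 genes, beside 14.1% of all protein-coding promoters and 31.6% (26.3 to 37.4) of those of ZNF genes on other chromosomes. Among clusters with few peaks it was found at 25 of 37 promoters from ZNF101 to ZNF254 and 25 of 40 from ZNF175 to ZNF331. In the cluster from ZNF653 to ZNF791, also with few, it was found at 2 of 26. Among clusters with many peaks it was found at 27 of 43 from ZNF264 to ZNF446, 7 of 26 from ZNF565 to ZNF573 and 9 of 23 from ZNF575 to ZNF180. Within the set 67.6% (58.4 to 75.6) of promoters with the word and 76.1% (68.3 to 82.4) of those without it had a peak in either list, a difference within counting error, whereas over all protein-coding genes the shares were 77.8% and 47.3%. The word was chosen after the promoters were seen.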
